A study of Homo sapiens with 8 samples.

Results

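The genes described here are the cytochrome P450 and UDP-glucuronosyltransferase (UGT) genes, 72 of the 26830 gene symbols in the deposited table. They were chosen by name alone: 53 P450 symbols (CYP, a family number, a letter and a number) other than CYP51A1, and 19 symbols of the UGT1A, UGT2A and UGT2B subfamilies. The study prepared an input RNA library and a ribosome footprint library from each of 4 cultures, 8 libraries in all. Of the cultures, 3 carried lentiviral guide RNAs against the RNA methyltransferase METTL16, a different guide in each (sgMETTL16-1, sgMETTL16-2 and sgMETTL16-3), and 1 carried the negative control guide (sgNS). Every culture derived from 1 Cas9-expressing clone labelled HEK293T, a human embryonic kidney line, was grown in 10 µg/ml blasticidin and 2 µg/ml puromycin, and received 100 µg/ml cycloheximide for 5 min, so these exposures were shared by sgMETTL16 and sgNS cultures. With 1 control culture and 3 different guides, the spread that the tests use is that between guides as well as between cultures, and nothing in the labels describes repeat cultures of the same guide.

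P450 enzymes are haem-containing monooxygenases that insert oxygen into lipophilic substrates. Families 1 to 3 are known mainly for drugs and other foreign chemicals, and other families for making or breaking down steroids, bile acids, vitamin D, retinoic acid and fatty acids. UGT enzymes attach glucuronic acid to drugs, bilirubin, steroids and bile acids so that they can be excreted. Liver is the tissue best known for both groups, with intestine and kidney expressing some of them, and CYP24A1, which inactivates vitamin D hormone, is best known from kidney.

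The levels are TPM, a length-scaled share of a library's transcripts, so they can be compared between genes. Where 3 sgMETTL16 values stand together, they follow the order of the guide numbers. Read totals are unknown, so no counting interval can be given. The targeted gene METTL16 had 4.72, 5.25 and 4.16 TPM in the 3 sgMETTL16 inputs, against 5.31 TPM in the sgNS input, which does not show a loss of its mRNA (log2 change -0.68, SE 0.36, limma adjusted p = 0.482). The 12 hepatocyte markers examined, among them albumin, were all at 1 TPM or more in every input and summed to 5961 to 8942 TPM in sgMETTL16 inputs, against 4892 TPM in the sgNS input. Among 10 HEK293 marker genes, 5 were expressed in every input, and the list summed to 1178 to 1327 TPM in sgMETTL16 inputs, against 687 TPM in sgNS. Most of this sum was from 2 keratin genes. KRT8 had 610 to 796 TPM in sgMETTL16 inputs, against 354 TPM in sgNS, and KRT18 432 to 537 TPM, against 309 TPM. NES, ENO2 and CDH2 had 6.13 to 12.06 TPM in sgMETTL16 inputs, against 6.23 to 8.94 TPM in sgNS. The remaining 5 of the 10 stayed below 1 TPM in each input, and NEFL, NEFM and VIM were listed at 0. VIM, which encodes vimentin, nevertheless had footprints of 85.16, 78.73 and 43.3 TPM in the 3 sgMETTL16 libraries, against 188 TPM in sgNS. The blood marker CD3E had footprints of 40.33, 27.96 and 0 TPM, against 0 TPM in sgNS. Its inputs were at 0, 0.02 and 0.08 TPM, against 0 TPM in sgNS. The source of such footprints was not tested, so an input listed at 0 is read neither as absence nor as presence. The 4 kidney tubule markers summed to 0.06 TPM or less in every input. The hepatocyte markers go against the labelled cell type and the HEK293 list was mixed, so the cells are called here by their guides. In bulk libraries fewer cells of a type and less RNA per cell cannot be told apart. The lists of fibroblast and blood markers summed to 4.61 to 5.68 and 34.98 to 47.36 TPM in sgMETTL16 inputs, against 2.74 and 16.61 TPM in sgNS. From 16.3% to 25.1% of all symbols were above 0 in an sgMETTL16 footprint library, against 17.1% in the sgNS footprints.

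A minority of the family reached 1 TPM in the inputs, as did a minority of all symbols. In the inputs, 25 of the 72 genes reached 1 TPM in at least 1 library, where 12003 of all 26830 symbols did. In all 4 inputs 13 of the 72 did so. Another 10 peaked between 0.1 and 1 TPM, 37 stayed under 0.1 TPM in every input, and 8 of these 37 were listed at 0 throughout. CYP27A1, which oxidises cholesterol side chains in bile acid synthesis and can hydroxylate vitamin D, held 33.5% to 44.5% of the summed P450 and UGT TPM in sgMETTL16 inputs, against 48.7% in the sgNS input. Together the 72 genes summed to 185, 216 and 157 TPM in the 3 sgMETTL16 inputs, against 110.02 TPM in sgNS. Library composition differed as well: protein-coding genes held 20.1% to 26.4% of TPM in sgMETTL16 inputs, against 20.4% in the sgNS input.

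**Figure D1:**
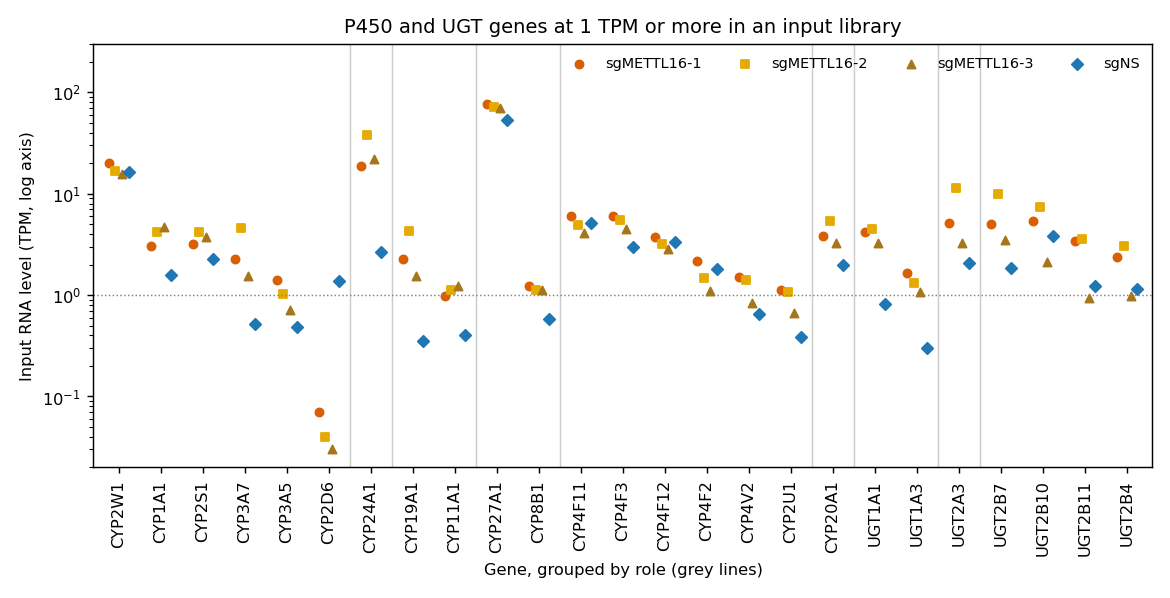
Input RNA level (TPM, log axis) of the 25 P450 and UGT genes that reached 1 TPM in an input library, grouped by role, with a point for each of the 4 libraries and a dotted line at 1 TPM. CYP27A1 lies highest, the sgNS point of CYP24A1 lies below its 3 sgMETTL16 points, and CYP2D6 is the gene whose sgNS point (1.39 TPM) lies far above the sgMETTL16 points.

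The comparison of sgMETTL16 with sgNS inputs addressed which of these transcripts differ in abundance. The comparison was fitted with limma over all genes with a mean input TPM of 1 or more, on log2(TPM + 1) with each library centred on its median gene, a scale that understates changes of low genes. In this fit limma took each gene's SE wholly from the trend over genes of like level. The SE and p therefore do not measure a gene's own spread between cultures. CYP24A1 rose, and no other P450 or UGT gene passed an adjusted p of 0.05. That is 1 of the 21 members tested, where 2.83% of all 10967 tested genes were called, 1.58% as higher and 1.25% as lower. The median log2 change was 0.08 over the 21 members and -0.06 over all tested genes. On this scale 9 of the 21 lay above sgNS in all 3 sgMETTL16 inputs, where 23.4% of all tested genes did, and 5 lay below sgNS in all 3, where 34.2% of all tested genes did. In TPM as deposited 14 of the 21 lay above sgNS in all 3, where 64.1% of all tested genes did. Of these 14, CYP19A1, CYP3A7, UGT1A1, UGT1A3, CYP4V2 and CYP8B1 were at 0.30 to 0.81 TPM in sgNS. They met the minimum mean only through their sgMETTL16 values, so the counts above sgNS are given as a description. The 3 values of a gene share the same sgNS library, so agreement among them is not independent.

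CYP24A1 (chromosome 20, 54143538 to 54173986, GRCh38.p14) encodes the mitochondrial 24-hydroxylase that inactivates vitamin D hormone and is known as a target gene of the vitamin D receptor. Its input level was 18.68 TPM in sgMETTL16-1, 37.87 TPM in sgMETTL16-2 and 21.91 TPM in sgMETTL16-3, against 2.64 TPM in sgNS. All sgMETTL16 inputs were thus above the control, with sgMETTL16-2 highest. Their mean was 26.2 ± 10.3 TPM (SD, n = 3), 9.91 times the sgNS level as deposited, and the ratios of the single cultures were 7.08, 14.3 and 8.30. The centred log2 change was 2.31 (SE 0.38, limma adjusted p = 4.39e-07), with 1.80, 2.63 and 2.48 in the 3 cultures, and CYP24A1 ranked 22 of the 10967 genes by size of increase. Albumin (ALB), the hepatocyte marker, also varied, with 1099, 1668 and 477 TPM in the 3 sgMETTL16 inputs, against 354 TPM in sgNS, while none of the 12 hepatocyte markers passed (median log2 change 0.04); their part in the result was not tested. The call was lost without centring (log2 change 2.84, limma adjusted p = 0.143) and with library factors in its place (2.58, limma adjusted p = 0.138). Over its 11 alternatives the change lay between 2.15 and 2.84 and the limma adjusted p between 5.60e-11 and 0.143.

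The enzymes best known for activating vitamin D and its receptor were low. CYP27B1, the kidney 1-alpha-hydroxylase that makes the active hormone, had 0.41 to 0.51 TPM in sgMETTL16 inputs, against 0.62 TPM in sgNS. CYP2R1, the principal hepatic 25-hydroxylase, had 0.03 to 0.12 TPM in sgMETTL16 inputs, against 0.19 TPM in sgNS. The vitamin D receptor gene VDR had 0.09, 0.09 and 0.14 TPM in the 3 sgMETTL16 inputs, against 0.02 TPM in sgNS, too low to enter the fit. Of 11 listed vitamin D genes outside the P450 family, 8 stayed under 1 TPM in each input, and 3 were tested and none passed, with a median log2 change of -0.45. Among the tested genes, RXRA, the receptor partner of VDR, had 18.71, 16.77 and 16.15 TPM in the 3 sgMETTL16 inputs, against 16.08 TPM in sgNS, and DHCR7, which consumes the precursor of vitamin D, had 78.9 to 94.88 TPM, against 83.19 TPM in sgNS.

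**Figure D2:**
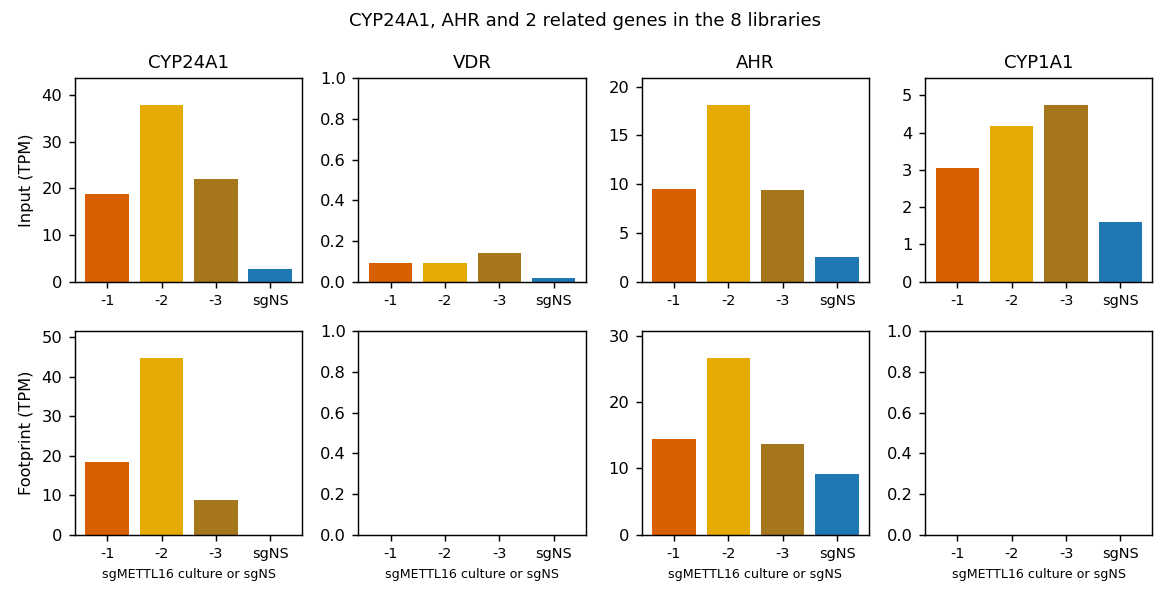
Level (TPM) of CYP24A1, VDR, AHR and CYP1A1 in the input (upper row) and footprint (lower row) libraries of the 3 sgMETTL16 cultures and of sgNS, with a bar for each library and an axis for each panel. CYP24A1 and AHR bars are higher in each sgMETTL16 input than in sgNS, VDR stays at 0.14 TPM or less, and CYP1A1 and VDR footprints are listed at 0.

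Among the P450s of families 1 to 3, several genes known for drug oxidation in adult liver were close to 0. CYP3A4 had 0.04 to 0.21 TPM in sgMETTL16 inputs, against 0.02 TPM in sgNS, and CYP2A6, CYP2B6, CYP2C8, CYP2C19 and CYP2E1 stayed at 0.10 TPM or less in every input. CYP3A7, the fetal liver form, had 2.28, 4.59 and 1.54 TPM in the 3 sgMETTL16 inputs, against 0.52 TPM in sgNS (log2 change 0.71, SE 0.31, limma adjusted p = 0.303). In every input CYP3A7 was therefore above CYP3A4, and above CYP3A5, which had 0.72 to 1.41 TPM in sgMETTL16 inputs, against 0.48 TPM in sgNS. The CYP3A genes are near-identical neighbours on chromosome 7, so the split of reads among them is uncertain. CYP2W1, known from fetal gut and colon tumours, was the highest of these families, with 20.07, 16.62 and 15.61 TPM in the 3 sgMETTL16 inputs, against 16.4 TPM in sgNS. Its log2 change was -0.45 (SE 0.38, limma adjusted p = 0.794) and turned to 0.08 without centring. CYP2S1, a P450 of epithelia, had 3.20 to 4.17 TPM in sgMETTL16 inputs, against 2.29 TPM in sgNS, with a centred log2 change of -0.02 (limma adjusted p = 0.996).

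CYP1A1, an oxidase of polycyclic aromatic hydrocarbons and the standard reporter gene of the aryl hydrocarbon receptor AHR, had 3.04, 4.18 and 4.74 TPM in the 3 sgMETTL16 inputs, against 1.59 TPM in sgNS. After centring the difference did not pass (log2 change 0.40, SE 0.34, limma adjusted p = 0.799), and CYP1A2 and CYP1B1 stayed at 0.08 TPM or less in every input. AHR itself (chromosome 7, 17298652 to 17346147) rose. It had 9.51, 18.12 and 9.35 TPM in the 3 sgMETTL16 inputs, against 2.58 TPM in sgNS (log2 change 1.31, SE 0.37, limma adjusted p = 0.0196). It did not pass without sgMETTL16-1 (limma adjusted p = 0.323), without centring (1.83, limma adjusted p = 0.235) or with library factors (1.58, limma adjusted p = 0.29), and the limma adjusted p lay between 0.0024 and 0.323 over its 11 alternatives. AHR footprints were at 14.41, 26.66 and 13.60 TPM in the 3 sgMETTL16 libraries, against 9.09 TPM in sgNS (limma adjusted p = 0.69), and CYP1A1 footprints were listed at 0 in all 4. Of 5 listed AHR targets outside the P450 and UGT genes, 3 were tested and none passed (median log2 change 0.39). These were NFE2L2, which encodes a factor of the oxidative stress response, at 0.93 (limma adjusted p = 0.249), TIPARP, an ADP-ribosyltransferase gene, at 0.39, and NQO1, a quinone reductase gene, at -0.58. The 100 bases before the CYP1A1 transcript start (chr15:74725529-74725628, minus strand, RefSeq, GRCh38.p14) are printed because AHR binds the letters GCGTG, which are in capitals here and lie 57 to 53 bases before the start.
CYP1A1: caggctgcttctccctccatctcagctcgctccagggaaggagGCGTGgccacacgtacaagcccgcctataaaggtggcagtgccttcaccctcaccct
These letters, on either strand, are in 32.2% of all 35116 RefSeq windows of the 250 bases before a start and in 15 of the 66 such windows of P450 and UGT genes, so a match describes the window only.

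CYP2D6 (chromosome 22, 42126499 to 42130810), which oxidises many drugs including codeine, was lower in every sgMETTL16 input. It had 0.07, 0.04 and 0.03 TPM in the 3 sgMETTL16 inputs, against 1.39 TPM in sgNS, and no footprint library held it. It is among the 25 genes at 1 TPM only through its sgNS value, so its lower sgMETTL16 levels are given as a description. Its mean over the 4 inputs was under the 1 TPM minimum, so it was not tested in the fit above. With no filter its log2 change was -1.58 (SE 0.34, limma adjusted p = 0.000452). It has near-identical pseudogene copies beside it, so its level is uncertain, and a value of 1.39 TPM rests on 1 library.

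The steroid and bile acid P450s that were expressed were few. CYP19A1, the aromatase that makes oestrogens, had 2.25, 4.33 and 1.55 TPM in the 3 sgMETTL16 inputs, against 0.35 TPM in sgNS. All sgMETTL16 inputs were above the control, and the log2 change of 0.86 (SE 0.31, limma adjusted p = 0.131) passed only with a pseudocount of 0.5 or 0.1, with no filter or over protein-coding genes. CYP19A1 met the minimum mean only through its sgMETTL16 values, so its higher sgMETTL16 level is given as a description. CYP11A1, the side-chain cleavage enzyme that starts steroid synthesis, had 0.99, 1.12 and 1.22 TPM, against 0.40 TPM in sgNS, and was below the filter. CYP17A1 stayed at 0.12 TPM or less, and CYP11B1 and CYP11B2, the adrenal hydroxylases, were listed at 0 in all 8 libraries. Of 3 adrenal and gonad markers, the transcription factor gene NR5A1 was at 37.8 to 40.49 TPM in sgMETTL16 inputs, against 30.81 TPM in sgNS, while HSD3B2 was listed at 0.

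CYP27A1 had 76.44, 72.30 and 69.86 TPM in the 3 sgMETTL16 inputs, against 53.55 TPM in sgNS, and its centred log2 change was -0.09 (SE 0.41, limma adjusted p = 0.983), turning to 0.44 without centring. CYP8B1, the sterol 12-alpha-hydroxylase, had 1.11 to 1.24 TPM in sgMETTL16 inputs, against 0.58 TPM in sgNS (log2 change -0.08, limma adjusted p = 0.976). CYP7A1, the rate-limiting enzyme of bile acid synthesis, had 0.41 to 0.92 TPM, against 0.13 TPM in sgNS. CYP7B1, CYP39A1 and CYP46A1 stayed at 0.03 TPM or less. CYP26A1, CYP26B1 and CYP26C1, which degrade retinoic acid, stayed at 0.14 TPM or less.

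In the CYP4F cluster on chromosome 19, whose enzymes hydroxylate fatty acids, leukotrienes and vitamin K, 3 genes lay below sgNS in all 3 cultures on the centred scale. These were CYP4F2 at -0.67 (SE 0.30, limma adjusted p = 0.33), CYP4F11 at -0.59 and CYP4F12 at -0.57, none past the threshold. Over all tested genes 34.2% lay below sgNS in all 3 on this scale. CYP4F11 had 5.97, 4.88 and 4.13 TPM in the 3 sgMETTL16 inputs, against 5.19 TPM in sgNS, so the deposited levels overlapped the control. CYP4F12 had 2.88 to 3.75 TPM in sgMETTL16 inputs, against 3.36 TPM in sgNS, and CYP4F2 1.09 to 2.18 TPM, against 1.82 TPM. Their neighbour CYP4F3 was at 0.12, with 4.45 to 6.03 TPM in sgMETTL16 inputs, against 3.01 TPM in sgNS. The difference between CYP4F3 and its neighbours was not tested, and these near-identical genes share reads. CYP4V2, a fatty acid hydroxylase, had 0.84 to 1.51 TPM in sgMETTL16 inputs, against 0.65 TPM in sgNS. CYP2U1, also a fatty acid hydroxylase, had 0.67 to 1.12 TPM, against 0.39 TPM in sgNS, and CYP20A1, a P450 of unknown substrate, 3.26 to 5.37 TPM, against 1.97 TPM in sgNS (log2 change 0.25, limma adjusted p = 0.918).

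**Figure D3:**
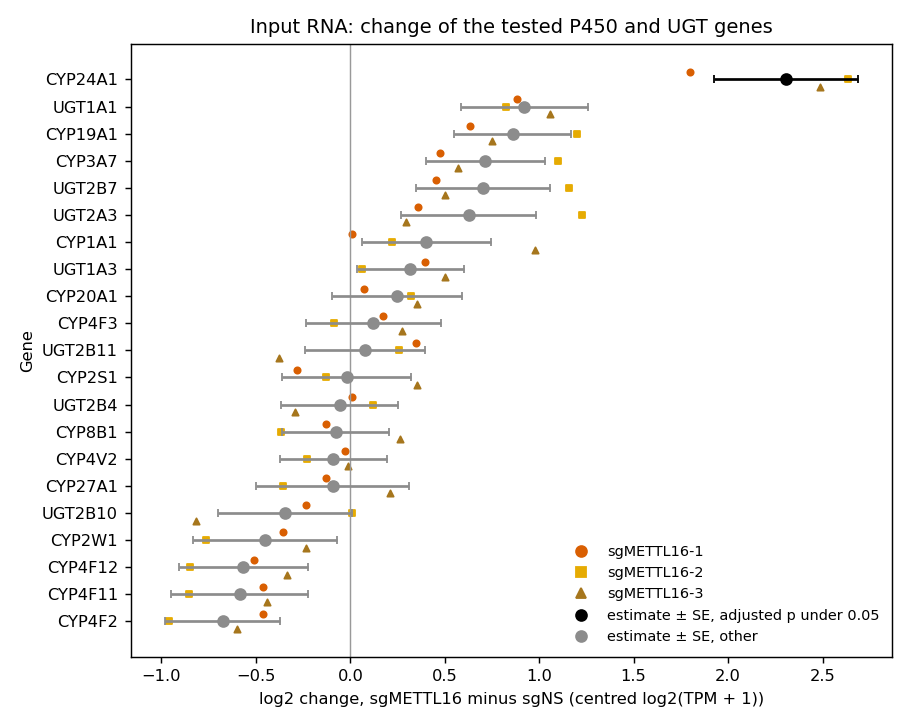
Input log2 change (sgMETTL16 minus sgNS, centred log2(TPM + 1)) of the 21 P450 and UGT genes tested, as the limma estimate with its standard error and the values of the 3 cultures. CYP24A1, at 2.31, is the gene past an adjusted p of 0.05, and UGT1A1 (0.92) and CYP19A1 (0.86) follow it below the threshold.

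The UGT1A genes lie nested on chromosome 2, where all 9 listed genes end at base 233773300 and start between bases 233617633 and 233760270 (GRCh38.p14). Each has its own leading exon and all share the remaining exons, so reads from the shared part cannot be assigned to a gene. UGT1A1, the enzyme that conjugates bilirubin, had 4.18, 4.50 and 3.23 TPM in the 3 sgMETTL16 inputs, against 0.81 TPM in sgNS. All sgMETTL16 inputs lay above the control and close together, but the log2 change of 0.92 (SE 0.34, limma adjusted p = 0.141) did not pass. It did pass without sgMETTL16-2 (0.97, limma adjusted p = 0.0212), with a pseudocount of 0.1, with no filter and over protein-coding genes. UGT1A3 had 1.07 to 1.65 TPM in sgMETTL16 inputs, against 0.30 TPM in sgNS (log2 change 0.32, limma adjusted p = 0.813). UGT1A1 and UGT1A3 met the minimum mean only through their sgMETTL16 values, so their higher sgMETTL16 levels are given as a description. The other 7 listed UGT1A genes stayed at 0.09 TPM or less.

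The expressed UGT2 genes lie in the cluster on chromosome 4, and 5 of its 10 listed genes reached 1 TPM. UGT2B7, which conjugates morphine, steroids and bile acids, had 5.05, 9.94 and 3.53 TPM in the 3 sgMETTL16 inputs, against 1.85 TPM in sgNS (log2 change 0.70, SE 0.36, limma adjusted p = 0.441). UGT2A3 had 5.11, 11.33 and 3.24 TPM, against 2.07 TPM in sgNS (log2 change 0.63, limma adjusted p = 0.55). UGT2B10, an enzyme of amine N-glucuronidation, had 5.41, 7.39 and 2.10 TPM, against 3.85 TPM in sgNS. UGT2B11 had 3.41, 3.58 and 0.93 TPM, against 1.23 TPM in sgNS, and UGT2B4, which conjugates bile acids, 2.37, 3.04 and 0.98 TPM, against 1.16 TPM in sgNS. For each of these 5 genes sgMETTL16-2 was highest and sgMETTL16-3 lowest among the sgMETTL16 inputs in TPM as deposited. For UGT2B10, UGT2B11 and UGT2B4 sgMETTL16-3 was below sgNS. The median tested gene had the same order, at 3.08, 3.23 and 2.62 in log2(TPM + 1), against 2.45 in sgNS. On the centred scale the order did not hold for UGT2B7 (0.45, 1.16 and 0.50) or UGT2B11 (0.35, 0.26 and -0.38). UGT2B15, UGT2B17 and UGT2B28, together with UGT2A1 and UGT2A2, stayed at 0.09 TPM or less.

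The sequences just before the starts of the 4 expressed UGT2 genes matched in the RefSeq promoter table (UGT2B4 was not among them) are printed because these genes had the same order of input levels across the sgMETTL16 cultures. That order is of TPM as deposited. ALB and the median tested gene had it too, and their part was not tested. The sequences come from RefSeq (GRCh38.p14), at chr4:69096374-69096473 (plus strand) for UGT2B7, chr4:68815894-68815993 (plus) for UGT2B10, chr4:69214749-69214848 (minus) for UGT2B11 and chr4:68951805-68951904 (minus) for UGT2A3. Those of UGT2B7 and UGT2B11 lie inside the RefSeq gene spans (69051375 to 69112987 and 69199951 to 69224984). They therefore precede a start within the gene, not its outermost start. Capitals mark TTTTAACTT, the longest stretch that the 250 bases before the start share in all 4.
UGT2B7: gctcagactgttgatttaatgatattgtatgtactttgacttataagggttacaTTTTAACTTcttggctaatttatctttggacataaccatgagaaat
UGT2B10: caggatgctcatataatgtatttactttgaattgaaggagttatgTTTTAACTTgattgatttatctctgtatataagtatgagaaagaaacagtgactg
UGT2B11: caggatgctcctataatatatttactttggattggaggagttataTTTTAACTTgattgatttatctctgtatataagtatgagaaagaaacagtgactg
UGT2A3: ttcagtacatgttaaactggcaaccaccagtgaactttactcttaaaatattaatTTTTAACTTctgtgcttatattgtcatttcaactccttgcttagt
UGT2B10 and UGT2B11 were 90.2% identical over the aligned windows of 250 bases, and UGT2B7 was 62.7% and 63.0% identical to them, while UGT2A3 was 46.0% to 51.2% identical to the others. The shared stretch ends 37 to 47 bases before the start, is in 0.476% of the 35116 RefSeq windows on either strand and in 5 of the 66 windows of P450 and UGT genes, and was found after the sequences were seen, so its share is a description. It overlaps TTAAC, the reverse complement of GTTAA, an arm of the palindromic motif of the liver factor HNF1. GTTAA on either strand is in 19.8% of all windows and in 17 of the 66 windows of P450 and UGT genes.

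Of the partner genes listed, AHR was the 1 that passed in the inputs, where 2.83% of all 10967 tested genes were called, 1.58% as higher. Of the 9 listed electron donors and binding partners of P450s, all 9 were tested and none passed (median log2 change 0.03). POR, the reductase that feeds electrons to microsomal P450s, had 103.34, 114.57 and 117.16 TPM in sgMETTL16 inputs, against 63.08 TPM in sgNS (log2 change 0.28, limma adjusted p = 0.923), and CYB5A, cytochrome b5, was at 0.21. None of the 5 listed genes that supply the UGT sugar donor passed (median 0.16). Among them UGDH, which makes UDP-glucuronic acid, was at 0.03 and UGP2, which makes its precursor, at 0.36. Of 15 tested regulators of drug metabolism genes AHR was the gene that passed, and the median was -0.19. HNF4A, a hepatocyte nuclear receptor, had 93.12 to 102 TPM in sgMETTL16 inputs, against 77.71 TPM in sgNS, with a centred log2 change of -0.19. NR1I2, the xenobiotic receptor PXR that induces CYP3A genes, had 1.49 to 1.97 TPM, against 1.21 TPM in sgNS, with a centred log2 change of -0.20. Of the other conjugating enzymes (sulfotransferases, glutathione transferases and others) 18 were tested and none passed, with a median of -0.16, and of 5 flavin monooxygenases 1 was tested and did not pass.

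In the footprints, 18 of the 72 genes were above 0 in at least 1 library and 2, UGT2A3 and UGT2B7, in all 4. There were 12, 13 and 8 members above 0 in the 3 sgMETTL16 footprint libraries, against 6 in sgNS, or 16.7%, 18.1% and 11.1%, against 8.33%. Of all symbols 21.6%, 25.1% and 16.3% were above 0 in these libraries, against 17.1% in sgNS. CYP24A1 footprints were at 18.47, 44.82 and 8.72 TPM in the 3 sgMETTL16 libraries and listed at 0 in sgNS. CYP27A1 footprints were at 26.42, 36.63 and 24.95 TPM, and CYP2W1 footprints at 26.29, 27.34 and 24.83 TPM, both listed at 0 in sgNS. These 3 P450s lay above the control in all sgMETTL16 footprint libraries, 3 of the 18 members tested, where 7.68% of all tested genes did. Since the control was at 0, no fold is given. These 3 genes met the minimum mean for testing only through their sgMETTL16 values, so the count is a description. Another 4 members (CYP2U1, UGT1A6, UGT2A3 and UGT2B10) lay below sgNS in all 3, where 31.2% of all tested genes did. On the fitted scale 4 lay above, where 11.3% of all tested genes did, and 3 below, where 23.3% did. The 3 P450s did not pass, at a limma adjusted p of 0.159 for CYP24A1, 0.0702 for CYP27A1 and 0.0927 for CYP2W1.

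The P450 footprint values moved in steps. Between any pair of footprint libraries, 23.6% to 33.6% of the genes above 0 in both shared the same ratio within 0.02 in the natural log. Divided by these ratios, CYP24A1 footprints in sgMETTL16-1, sgMETTL16-2 and sgMETTL16-3 stood as 2 to 7 to 1, and no value missed its whole number by more than 1%. CYP27A1 stood as 1 to 2 to 1 and CYP2W1 as 2 to 3 to 2, while CYP20A1 stood as 2 to 3 in sgMETTL16-1 and sgMETTL16-2, against 1 in sgNS. Read numbers were not used here, and the true ones could be multiples of these. If these are the numbers of reads, a single read in sgNS would have been worth 17.5 TPM for CYP24A1 and 24.9 TPM for CYP2W1, so a listing at 0 there does not show absence. UGT2A3, UGT2B10 and UGT2B7 values could not be put in such whole numbers starting from up to 4 within 1%.

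**Figure D4:**
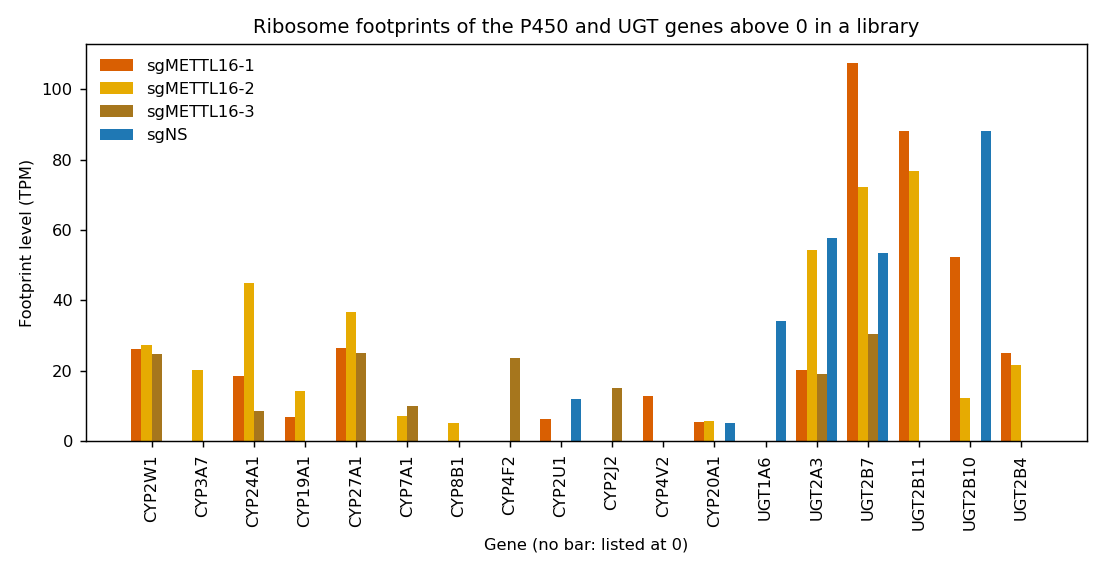
Footprint level (TPM) of the 18 P450 and UGT genes above 0 in at least 1 footprint library, with a bar for each library and no bar where a gene is listed at 0. CYP24A1, CYP27A1 and CYP2W1 have bars in the 3 sgMETTL16 libraries and none in sgNS, whereas UGT2A3 and UGT2B7 have bars in all 4.

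UGT genes summed to 294, 237 and 49.6 footprint TPM in the 3 sgMETTL16 libraries, against 234 TPM in sgNS, and P450 genes to 103, 161 and 107 TPM, against 17.2 TPM in sgNS. UGT genes thus held most of the family's footprint TPM except in sgMETTL16-3. That footprint library stood apart in composition: protein-coding genes held 26.9%, 28.3% and 11.9% of TPM in the 3 sgMETTL16 footprint libraries, against 27.0% in sgNS. Hepatocyte marker footprints summed to 21714, 17702 and 4391 TPM, against 12774 TPM in sgNS, and the part of these differences in the UGT values was not tested. UGT2B7 footprints were at 107, 72.10 and 30.42 TPM in the 3 sgMETTL16 libraries, against 53.49 TPM in sgNS, so the deposited levels overlapped the control. On the fitted scale its changes were 1.13, 0.51 and 0.39 in the 3 libraries, and it did not pass (log2 change 0.68, SE 0.47, limma adjusted p = 0.69). UGT2A3 footprints were at 20.33, 54.40 and 19.20 TPM, against 57.75 TPM in sgNS. UGT2B10 was at 52.38 and 12.40 TPM in sgMETTL16-1 and sgMETTL16-2 and listed at 0 in sgMETTL16-3, against 88.25 TPM in sgNS. UGT2B11, at 88.23 and 76.72 TPM, and UGT2B4, at 25.17 and 21.64 TPM, were seen in sgMETTL16-1 and sgMETTL16-2 and listed at 0 in sgMETTL16-3 and sgNS. The UGT2B genes are close paralogs, so their separate levels are uncertain. The ratio of footprint to input TPM of UGT2B7 was 21.3, 7.25 and 8.62 in sgMETTL16-1, sgMETTL16-2 and sgMETTL16-3, against 28.9 in sgNS, above 96.3% to 99.1% of the genes at 1 TPM or more in the input of the same library. For CYP27A1 the ratio was 0.346, 0.507 and 0.357 in the 3 sgMETTL16 cultures, and for CYP24A1 it was 0.989, 1.18 and 0.398.

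The remaining footprints were scattered. CYP19A1 was at 6.83 and 14.21 TPM in sgMETTL16-1 and sgMETTL16-2, CYP20A1 at 5.47 and 5.69 TPM in these libraries, against 5.18 TPM in sgNS, and CYP2U1 at 6.33 TPM in sgMETTL16-1, against 11.97 TPM in sgNS. CYP4V2 (12.78 TPM, sgMETTL16-1), CYP3A7 (20.20 TPM) and CYP8B1 (5.29 TPM, both sgMETTL16-2) and CYP4F2 (23.76 TPM, sgMETTL16-3) were each seen in 1 library. Of the 47 genes under 1 TPM in all inputs, 3 had footprints. CYP7A1 was at 7.28 and 9.92 TPM in sgMETTL16-2 and sgMETTL16-3, and CYP2J2, an epoxygenase of arachidonic acid, at 15.07 TPM in sgMETTL16-3. UGT1A6, which conjugates small phenols, was at 34.10 TPM in the sgNS footprints, listed at 0 in the other 3 footprint libraries, and listed at 0 in all 4 inputs.

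UGT1A6 was the 1 member of 18 tested in the footprints that passed the threshold, as lower in sgMETTL16 (limma adjusted p = 0.0312), where 6.56% of all 9297 tested genes were called, 5.84% as lower and 0.721% as higher. It met the minimum mean only through its sgNS value, which rests on 1 library, so its lower sgMETTL16 level is given as a description. Because the UGT1A genes share exons, the gene behind this value is uncertain as well. Of the 610 genes called, 543 were listed at 0 in all 3 sgMETTL16 libraries and 66 in sgNS, so the spread within sgMETTL16 was 0 for most of them and no fold is given. METTL16 footprints, at 19.76 TPM in sgNS and 0 in sgMETTL16, were called in the same way, as were the conjugating enzymes GSTA4 (43.23 TPM in sgNS) and SULT1E1 (32.36 TPM in sgNS). The UGT1A6 call was lost without any of the 3 sgMETTL16 libraries (limma adjusted p = 0.249 without sgMETTL16-1, 0.091 without sgMETTL16-2 and 0.174 without sgMETTL16-3) and with centring (0.39) or without the intensity trend (0.064). The median log2 change was 1.49 over the 18 members and 0.86 over all tested genes.

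Translation efficiency, the subject of the series, was compared over all 8 libraries by a guide by library-kind interaction, which asks whether the footprint to input ratio differs. The fit treated the input and footprint libraries of a culture as independent, so its SE and p ignore that pairing. No P450 or UGT gene of 14 tested passed in limma, and for 2 the unadjusted p was under 0.05. Over all 8002 tested genes 0.512% were called, 0.337% as higher and 0.175% as lower, and none was called over all genes with the culture as a block. CYP27A1 (log2 change 4.90, SE 0.79, limma adjusted p = 0.0597) and CYP2W1 (5.11, SE 0.94, limma adjusted p = 0.0597) had the smallest p. Both estimates rest on the listing at 0 in the sgNS footprints and on the pseudocount, and with a pseudocount of 0.1 both genes passed. CYP24A1, whose input rose, had a log2 change of 1.89 (SE 1.14, limma adjusted p = 0.818), and UGT2B7 had -0.32 (SE 0.98, limma adjusted p = 0.871).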

How the data were processed

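Input RNA and ribosome footprints (17 to 34 nt) were sequenced as 51-base single-end reads after rRNA removal, per the labels' protocols. STAR, RSEM 1.2.31 and the build GRCh38 are named in the submitters' processing notes. STAR's version is not given in the sources used here. The authors deposited TPM values, which sum to the same total in each library, so depth is unknown and changes are relative.

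Genes averaging at least 1 TPM were fitted with limma 3.58.1 (R 4.3.3) on log2(TPM + 1) with an intensity trend and Benjamini-Hochberg adjustment (threshold 0.05). Inputs were centred on the median gene. Footprints, where the median gene is at 0, were divided by library factors (median ratio over 678 genes above 0 in all 4 libraries with a mean of 50 TPM or more), which range from 0.554 to 1.21 in sgMETTL16 and are 1.29 in sgNS. Translation efficiency used factors within each kind of library. Input and footprint libraries with the same guide number come from the same culture, per the series' design, so the culture was the block in an alternative fit. With 1 sgNS culture, its spread was taken to equal that of sgMETTL16. The scripts were tested on simulated data. Annotation, by symbol (72 of 72 members, 66 with a promoter window), came from RefSeq GRCh38.p14. Genes were named when at 1 TPM or more in an input, when above 0 in a footprint library, or when past the threshold in a partner list. The members, lists and tests were chosen with earlier results of these data known. The values of 1 member are not reported here.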

Additional observations from a re-analysis of the deposited data

How the results depend on the processing

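The input calls depended on the scaling. Of all genes 310 passed, 23 (22 higher, 1 lower) without centring, where the median gene moved to 0.46, and 10 with library factors (median 0.21), where 0 P450 or UGT genes and 0 partner genes passed. The number of members called higher was 3 with a pseudocount of 0.1 (221 of all 10967 genes), 2 with 0.5 (194 of 10967), 3 with no filter (233 of 20560) and 3 over protein-coding genes (121 of 11838), the added genes being CYP19A1 and UGT1A1. In each of the last 2 settings 1 member (CYP2D6) was called lower, against 162 and 104 of all genes, and over protein-coding genes it passed the minimum only through its sgNS value. Leaving out a culture gave 110 (without sgMETTL16-1) to 664 (without sgMETTL16-3) calls and 1 to 2 members called higher. The log2 change turned its sign without centring for CYP27A1 (0.44), CYP2S1 (0.51), CYP2W1 (0.076), CYP4V2 (0.44), CYP8B1 (0.45), HNF4A (0.34), NR1I2 (0.33), UGT2B10 (0.18) and UGT2B4 (0.47). The log2 change turned its sign with library factors for CYP27A1 (0.12), CYP2S1 (0.28), CYP4V2 (0.29), CYP8B1 (0.32), HNF4A (0.021), NR1I2 (0.14) and UGT2B4 (0.28). The log2 change turned its sign with a pseudocount of 0.1 for CYP2S1 (0.050), CYP4V2 (0.21), CYP8B1 (0.28), UGDH (-0.027) and UGT2B4 (0.079). The log2 change turned its sign with a pseudocount of 0.5 for CYP2S1 (0.012), CYP4V2 (0.018), CYP8B1 (0.048) and UGT2B4 (0.0014). The log2 change turned its sign with no filter for CYP27A1 (0.048), CYP2S1 (0.12), CYP4V2 (0.050), CYP8B1 (0.062) and UGT2B4 (0.085). The log2 change turned its sign over protein-coding genes for CYP2S1 (0.0081), CYP4V2 (0.13), CYP8B1 (0.19), UGDH (-0.061) and UGT2B4 (0.028). Leaving out a culture in turn gave ranges that cross 0: CYP27A1 -0.24 to 0.044, CYP2S1 -0.21 to 0.11, UGDH -0.25 to 0.22, UGT2B11 -0.060 to 0.30 and UGT2B4 -0.14 to 0.064.

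In the footprints 610 genes passed, 138 with a mean of 10 TPM or more, and 0 with centring, without the trend or without any of the 3 sgMETTL16 cultures, where 0 members were called. With limma 1189, 1143 and 1273 to 1947 genes still had an unadjusted p under 0.05. On TPM as deposited 1 member (CYP2W1) was called higher, among 49 of all 9297 genes, and with a pseudocount of 0.1 2 (CYP2W1 and CYP27A1), among 192 of 9297. UGT1A6 was not called with a mean of 10 TPM or more, where it was not tested. With centring the signs turned for CYP3A7 (-0.66), CYP4F2 (-0.58), CYP4V2 (-0.87), CYP8B1 (-1.24) and UGT2B7 (-1.92), and leaving out a culture gave -1.03 to 0.23 for CYP20A1.

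For translation efficiency 41 genes passed, 0 with the replicate block (571 had an unadjusted p under 0.05 with limma), 14 on TPM as deposited, 0 with centring, 674 with a pseudocount of 0.1 (2 members, CYP27A1 and CYP2W1, among 335 of 8002 genes called higher), 138 with a pseudocount of 10, 93 with a mean of 10 TPM or more in both kinds (1 member, CYP27A1, among 80 of 2355 genes called higher), 7 without the trend and 0 without any of the 3 sgMETTL16 cultures. UGT2B7 turned to 0.27 with centring, 0.23 with a pseudocount of 10, and to between -0.66 and 0.099 when a culture was left out. The causes of these changes were not tested. The coarse steps of the values limit the footprints, and 1 control culture limits every comparison.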
